A study of Homo sapiens with 6 samples.

Results

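The genes examined here encode the SR proteins, named SRSF with a number, and the heterogeneous nuclear ribonucleoproteins (hnRNPs), named with the prefix HNRNP. They were chosen by symbol, leaving out HNRNPK, HNRNPH3 and any symbol with a hyphen, which gave 39 of 25545 genes in the table of expression values. Of these, 12 were SR protein genes, 18 were hnRNP genes, and 9 were hnRNP copies or pseudogenes. Cells of BT-549, a line established from a triple-negative breast cancer (TNBC), were transfected with a control siRNA (CsiRNA) or with an siRNA against the long noncoding RNA NEAT1 (NEAT1siRNA), and RNA was sequenced at 48 h. Each group had 3 libraries, all from this 1 line and 1 NEAT1 siRNA. The sample titles carry a tet prefix that was not explained. The RNA came from cells grown in triplicate, so the p-values measure the spread between cultures of 1 line, and whether these were transfected on separate occasions is not given in the sources used here.

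SR proteins bind nascent transcripts through RNA recognition motifs and, through arginine/serine-rich domains, help the spliceosome to recognize exons. hnRNPs coat nascent RNA, often oppose SR proteins at splice sites, and also act in export, stability and translation. The long isoform of NEAT1, NEAT1_2, is the scaffold of paraspeckles, nuclear bodies that hold RNA-binding proteins, several hnRNPs among them. The short isoform, NEAT1_1, is dispensable for them. Members of both families bind their own transcripts, and the mRNAs of many SR proteins contain exons whose inclusion sends them to nonsense-mediated decay.

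Expression is given in TPM, in which read numbers are divided by transcript length and scaled to a sum of 1000000 in each library. The libraries held between 15786929 and 20342845 reads, as recovered from the deposited tables. Between 64.4% and 68.1% of TPM fell on 4 short noncoding RNAs (RN7SK, RN7SL1, RN7SL2 and RPPH1), so that TPM of other genes moves with this share. Epithelial CDH1 (at most 0.168 TPM) and EPCAM (at most 0.0301 TPM) were near 0, mesenchymal VIM was between 859 and 1112 TPM, ESR1 was listed at 0, ERBB2 was at most 6.36 TPM, and of the leukocyte and endothelial markers PTPRC, CD3E, PECAM1, CDH5 and VWF were at or near 0 and CD68 was between 23.2 and 29.2 TPM. NEAT1 was 13.4, 7.68 and 10.8 TPM in the CsiRNA libraries and 4.36, 2.96 and 2.73 TPM in the NEAT1siRNA libraries. The groups did not overlap, with a log2 fold change of -1.41 (SE 0.14, adjusted p = 1.21e-07 by limma with Benjamini-Hochberg adjustment over all genes tested). TPM per gene do not separate the isoforms NEAT1_1 and NEAT1_2. In bulk RNA, fewer cells that express a gene and less of its RNA per cell cannot be told apart.

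Expression of the SR and hnRNP genes differed little between the groups. Of the 39 genes, 30 reached the limit of expression for testing, a TPM of 1 on average over the 6 libraries, namely 10 SR proteins, 17 hnRNP genes and 3 copies. None of the 30 passed an adjusted p of 0.05 in limma (0 of 30), whereas 14.0% of the 10721 genes tested passed it, 4.99% being higher and 8.98% lower in NEAT1siRNA. At an unadjusted p under 0.05 there were 3 of 30 (SRSF6, HNRNPU and HNRNPAB, all lower), against 27.4% of all genes tested. The voom test on reads recovered from the tables also called 0 of the 30, against 23.0% of all genes. Removing the trend with GC content and transcript length called 5 of the 30 (SRSF3, SRSF6, HNRNPA1, HNRNPU and HNRNPUL1), against 33.3% of all genes in that fit. Log2 fold changes, taken on log2(TPM + 1) as NEAT1siRNA minus CsiRNA, ran from -0.20 to 0.12. The median was -0.015 for SR proteins and -0.0073 for hnRNP genes, beside -0.044 for all genes tested. These medians were above 0 after quantile normalization, where that of both groups together was 0.034, and 0.05 after centring on the median, so their sign depended on the scaling.

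The precision behind these differences can be read from their 95% intervals. For all 30 genes tested the interval lay within 0.5 of 0 on the log2 scale, as it did for 86.2% of all genes tested. In the other settings tried it did so for 29 of the 30, the exception being the pseudogene HNRNPA1P33 with few reads, whose interval ran from -0.63 to 0.32 with a pseudocount of 0.1 and from -0.92 to 0.69 with voom. Over the 27 SR and hnRNP genes, the bounds ran from -0.39 to 0.32. A larger change than these bounds was thus not seen at the level of the whole gene. TPM per gene do not show which exons were included, so splicing of these genes was not measured.

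**Figure D1:**
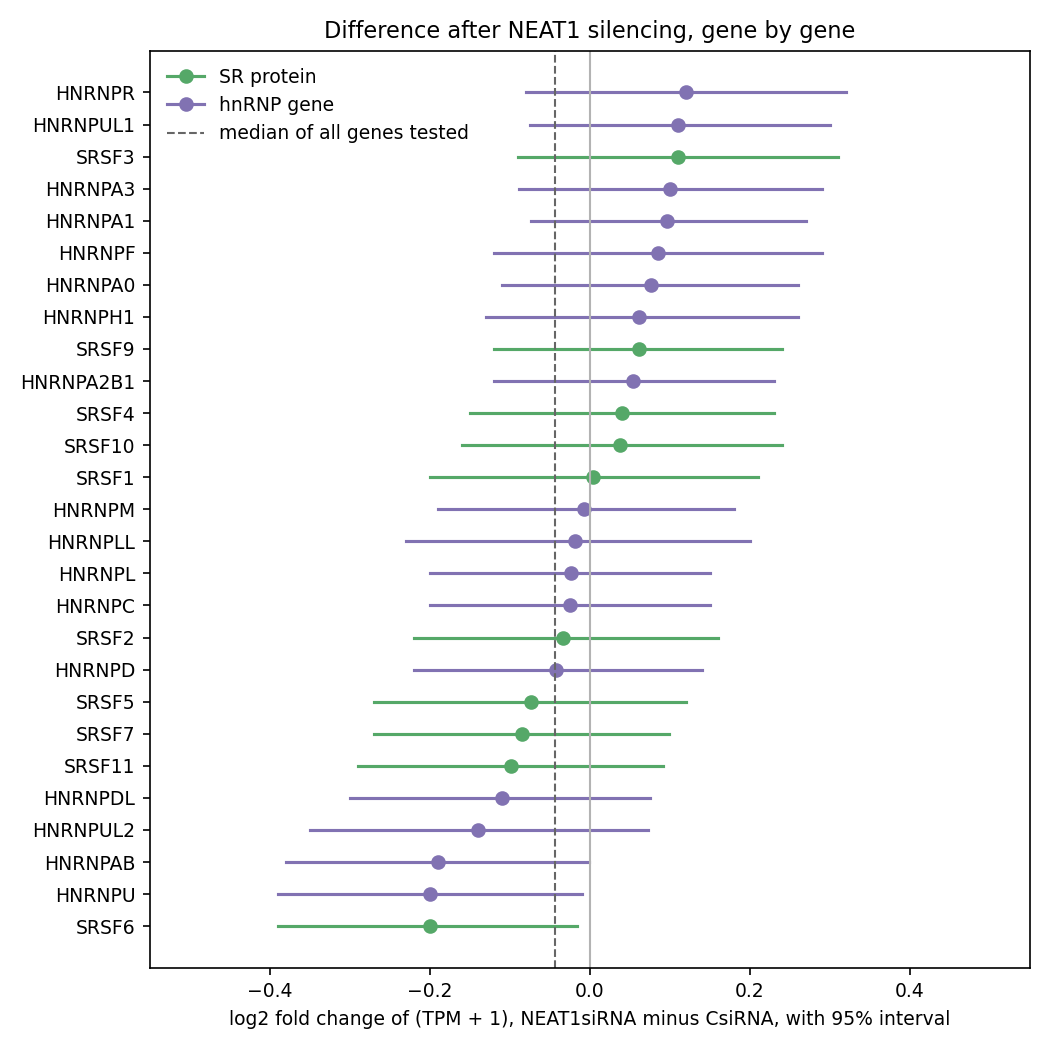
Log2 fold change of TPM + 1 (x axis, NEAT1siRNA minus CsiRNA) for the 27 SR and hnRNP genes tested (y axis, ordered by fold change), where points are estimates, lines are 95% intervals, and the dashed line is the median of all genes tested. Estimates run from -0.20 to 0.12, and the intervals of 24 genes include 0.

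Among the SR proteins, SRSF6, a regulator of exon choice in genes such as MAPT, came nearest to the threshold. SRSF6 (GRCh38 chr20:43457893-43466046, + strand) was 65.0, 62.2 and 59.0 TPM in CsiRNA and 51.3, 59.6 and 50.5 TPM in NEAT1siRNA. NEAT1siRNA replicate 2 lay inside the CsiRNA range and the other 2 lay below it. The log2 fold change was -0.20 (SE 0.092, 95% interval -0.39 to -0.016), with adjusted p = 0.144 by limma. It passed the threshold without NEAT1siRNA replicate 2 (adjusted p = 0.0165), after quantile normalization (adjusted p = 0.0399), and after removal of the GC and length trend (adjusted p = 0.00270). Without CsiRNA replicate 1 the adjusted p was 0.403, and without NEAT1siRNA replicate 3 it was 0.429. SRSF6 was called in 4 of 17 other settings of the fit. In the GENCODE annotation, 13.4% of the exonic bases of SRSF6 lie on the same strand as exons of another gene.

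SRSF3, the smallest SR protein and the most abundant SR transcript here, was 94.7, 90.7 and 82.1 TPM in CsiRNA and 87.1, 112 and 91.2 TPM in NEAT1siRNA. The groups overlapped, with NEAT1siRNA replicate 2 the highest of the 6 libraries. Its log2 fold change was 0.11 (95% interval -0.09 to 0.31, adjusted p = 0.505). With the GC and length trend removed the adjusted p was 0.0496, and SRSF3 was called in 1 of 17 other settings of the fit. SRSF1, the founding SR protein with roles in splicing, decay and translation, was 59.8 ± 5.05 TPM in CsiRNA and 60.1 ± 7.36 TPM in NEAT1siRNA (SD, n = 3 each). Its log2 fold change was 0.0037 with an interval from -0.20 to 0.21. In the annotation, 32.7% of the exonic bases of SRSF1 also lie in a gene without a symbol on the same strand.

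SRSF2, which binds exonic enhancers and stays in the nucleus, was 70.4 ± 5.32 TPM in CsiRNA and 68.8 ± 5.75 TPM in NEAT1siRNA (SD, n = 3 each). SRSF7, a zinc-knuckle SR protein that couples splicing to export, was 39.9 ± 1.97 and 37.5 ± 1.85 TPM in the respective groups. In both genes the groups overlapped. Of the other SR proteins tested (SRSF4, SRSF5, SRSF9, SRSF10 and SRSF11), log2 fold changes lay between -0.098 for SRSF11 and 0.062 for SRSF9, and adjusted p-values were 0.541 or more. SRSF8 and SRSF12 fell below the limit of expression for testing. SRSF12 had 70, 64 and 74 reads in CsiRNA and 56, 72 and 53 in NEAT1siRNA, and SRSF8 had between 4 and 12 reads per library.

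Among the hnRNP genes, HNRNPU alone had every NEAT1siRNA library below every CsiRNA library. HNRNPU, also called scaffold attachment factor A, binds chromatin-associated RNA and organizes chromatin. The gene (chr1:244840638-244864560, - strand) was 94.3, 87.1 and 83.6 TPM in CsiRNA and 79.8, 82.0 and 69.0 TPM in NEAT1siRNA. Of all genes tested, 19.3% lay wholly below in this way and 11.0% wholly above, and none of the 30 genes lay wholly above. The log2 fold change of HNRNPU was -0.20 (SE 0.092, 95% interval -0.39 to -0.0095), with adjusted p = 0.158 by limma. The adjusted p was 0.0366 without NEAT1siRNA replicate 2 and 0.0219 with the GC and length trend removed. It was 0.470 without CsiRNA replicate 1 and 0.561 without NEAT1siRNA replicate 3. HNRNPU was called in 3 of 17 other settings of the fit.

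HNRNPAB (chr5:178204533-178211163, + strand), also known as CArG-binding factor A, was 166, 156 and 135 TPM in CsiRNA and 133, 140.2 and 126 TPM in NEAT1siRNA. CsiRNA replicate 3 fell among the NEAT1siRNA values. The log2 fold change was -0.19 (SE 0.091, 95% interval -0.38 to -0.0011), with adjusted p = 0.178 by limma. Leaving out CsiRNA replicate 3 gave an adjusted p of 0.0345, and quantile normalization gave 0.0342. Leaving out CsiRNA replicate 1 gave 0.558, and removing the GC and length trend gave 0.103. HNRNPAB was called in 2 of 17 other settings of the fit.

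On the other side, HNRNPR, a relative of SYNCRIP that binds mRNA, was 35.5, 31.3 and 31.2 TPM in CsiRNA and 33.7, 40.1 and 33.1 TPM in NEAT1siRNA. Its log2 fold change of 0.12 was the highest of the 30 (95% interval -0.08 to 0.32, adjusted p = 0.463). HNRNPUL1, a relative of HNRNPU that takes part in the response to DNA breaks, was 82.9, 81.2 and 92.4 TPM in CsiRNA and 100.2, 89.2 and 87.9 TPM in NEAT1siRNA. Here NEAT1siRNA replicate 1 rather than replicate 2 was the highest library, and the groups overlapped (log2 fold change 0.11, adjusted p = 0.462). Without the GC and length trend, HNRNPUL1 had an adjusted p of 0.0334, and it was called in 2 of 17 other settings of the fit.

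HNRNPA1, which binds exonic and intronic silencers and shuttles to the cytoplasm, was 353, 340.1 and 331 TPM in CsiRNA and 359.7, 392 and 345 TPM in NEAT1siRNA. The NEAT1siRNA libraries reached higher, yet replicate 3 lay below CsiRNA replicate 1. The log2 fold change was 0.096 (95% interval -0.074 to 0.27, adjusted p = 0.491). Its adjusted p was 0.0208 with the GC and length trend removed, and it was called in 2 of 17 other settings of the fit. HNRNPA2B1, a reader of RNA sorting signals, was 226 ± 8.81 TPM in CsiRNA and 235 ± 20.2 TPM in NEAT1siRNA. HNRNPC, which binds uridine tracts and prevents the use of cryptic exons, was 167 ± 10.2 and 164 ± 8.79 TPM (SD, n = 3 each). HNRNPL, a reader of CA repeats, was 155 ± 3.51 and 153 ± 6.11 TPM. Neither HNRNPC nor HNRNPL had a difference beyond the spread of its replicates. The other 9 of the hnRNP genes tested and not yet given (HNRNPA0, HNRNPA3, HNRNPD, HNRNPDL, HNRNPF, HNRNPH1, HNRNPLL, HNRNPM and HNRNPUL2) had log2 fold changes from -0.14 (HNRNPUL2) to 0.10 (HNRNPA3), with groups that overlapped.

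**Figure D2:**
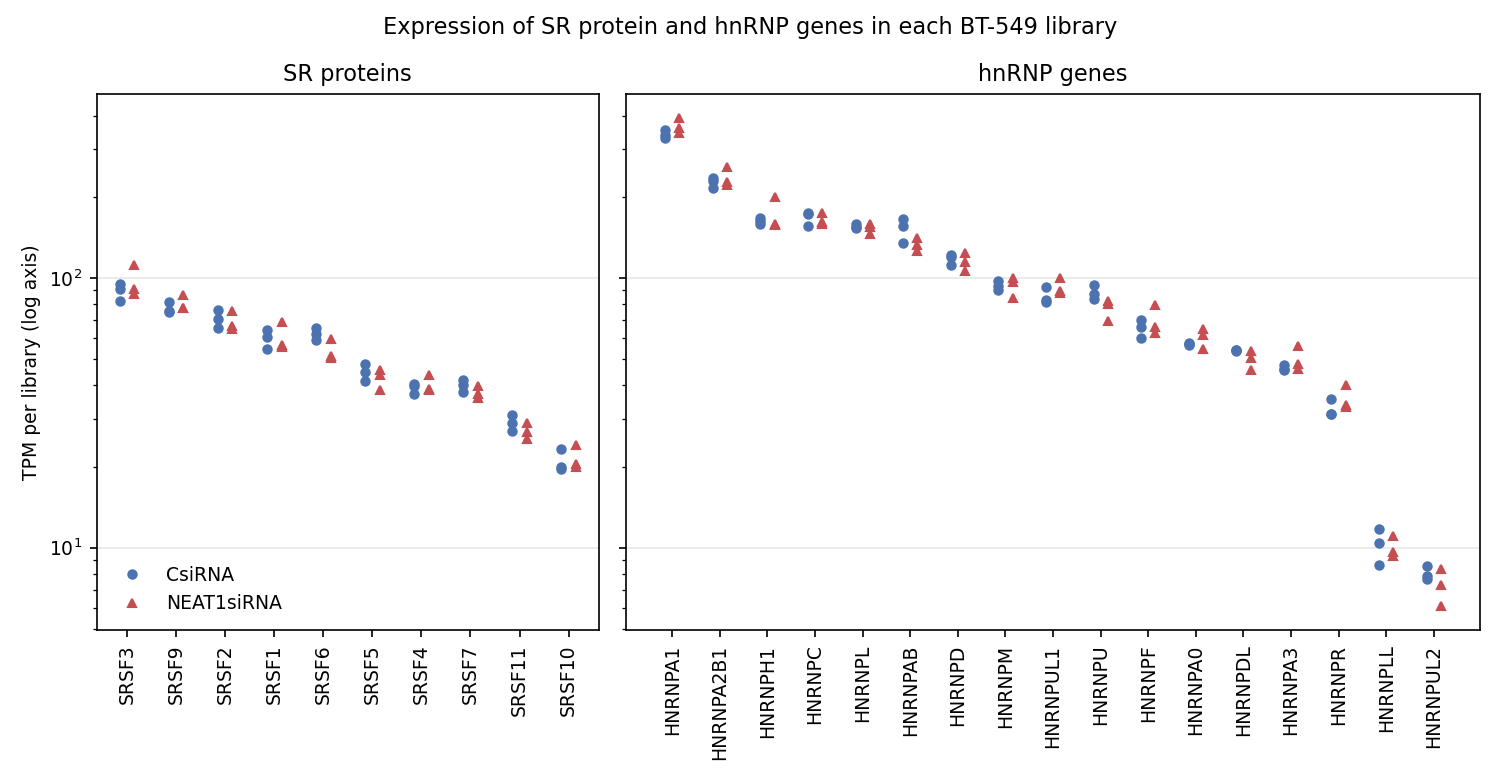
TPM on a log axis (y) of each SR protein (left) and hnRNP gene (right) tested, ordered by mean (x), with 1 point per library, circles for the 3 CsiRNA and triangles for the 3 NEAT1siRNA libraries. HNRNPA1 lies highest, between 331 and 392 TPM, and HNRNPU is the 1 gene whose triangles all lie below its circles.

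The families differed in how abundant their members were in BT-549 cells. Per length, hnRNP transcripts summed to 1864 ± 68.3 TPM in CsiRNA and SR transcripts to 533 ± 25.4 TPM (SD, n = 3). The hnRNP sum leaves out HNRNPK, HNRNPH3, the copies and hnRNPs with other names, so it is not that of the whole family. HNRNPA1 alone took 18.9% of the hnRNP sum, and HNRNPA1, HNRNPA2B1, HNRNPH1, HNRNPC and HNRNPL together took 57.2%. SRSF3 took 17.5% of the SR sum and the 5 most abundant SR genes took 67.6%, SRSF3 being followed by SRSF9 (78.9 TPM over all 6 libraries), SRSF2 (69.6 TPM), SRSF1 (59.9 TPM) and SRSF6 (57.9 TPM). In the order of SR levels, 6 of 9 neighbouring pairs overlapped over the 6 libraries. Those apart were SRSF6 above SRSF5, SRSF7 above SRSF11, and SRSF11 above SRSF10. In the hnRNP order, 8 of 16 neighbouring pairs overlapped, while HNRNPA1 lay above HNRNPA2B1 (231 TPM) and HNRNPA2B1 above HNRNPH1 (167 TPM) in every library. The lowest tested were HNRNPLL (10.1 TPM) and HNRNPUL2 (7.62 TPM), of which HNRNPUL2 shares 44.3% of its exonic bases with a readthrough gene listed at 0.

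HNRNPH2, a close relative of HNRNPH1, was nearly absent from the table, with at most 0.0441 TPM and between 0 and 2 reads in a library. In the annotation of GRCh38 (chrX:101408222-101414133, + strand) 15.8% of its exonic bases also belong to RPL36A-HNRNPH2, a readthrough gene listed at 0 in all libraries. RPL36A, the neighbouring ribosomal protein gene in that readthrough, was between 0.684 and 1.86 TPM. How reads in shared exons were counted is not given in the sources used here, and its part in these values was not tested.

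The sums of the families were close in the groups. The SR sum was 561, 529 and 510.4 TPM in CsiRNA and 506, 585 and 499 TPM in NEAT1siRNA, a ratio of group means of 0.994. The hnRNP sum was 1933, 1864 and 1796 TPM in CsiRNA and 1861, 2027 and 1759 TPM in NEAT1siRNA, a ratio of 1.01. As a share of recovered reads, the hnRNP sum was 0.649%, 0.667% and 0.668% in CsiRNA and 0.692%, 0.697% and 0.682% in NEAT1siRNA. On this scale the groups did not overlap, with a ratio of 1.04. Of single genes tested, 11.0% lay wholly above on the TPM scale. Recovered reads of genes this abundant were hardly checked. After rescaling TPM without the 4 short noncoding RNAs the hnRNP sums overlapped. They were 5427, 5414 and 5560 TPM in CsiRNA and 5629, 5778 and 5512 TPM in NEAT1siRNA. The SR share of recovered reads overlapped too, from 0.205% to 0.208% in CsiRNA and from 0.204% to 0.222% in NEAT1siRNA. The sums are descriptions and were not tested.

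Among the 6 libraries, NEAT1siRNA replicates 2 and 3 stood at the extremes for many of these genes. NEAT1siRNA replicate 2 was the highest of the 6 libraries for 15 of the 27 SR and hnRNP genes, as it was for 30.8% of all genes tested, and NEAT1siRNA replicate 3 was the lowest for 14 of 27, beside 40.5%. After rescaling without the 4 short noncoding RNAs these counts were 13 of 27, beside 25.3%, and 7 of 27, beside 19.2%. The median coefficient of variation of the 27 genes was 5.98% in CsiRNA and 8.72% in NEAT1siRNA, beside 7.01% and 8.33% for genes in the same range of TPM. Transcripts of the 27 genes had a median GC content of 42.2%, below the 47.3% of all genes tested. On the log2 scale, NEAT1siRNA replicate 2 exceeded the mean of replicates 1 and 3 by a median of 0.16 for the 27 genes and 0.10 for all genes. This excess was larger in genes of low GC, with a Spearman rho of -0.56 over the 27 genes and -0.73 over 10424 genes, the points sharing the same 3 libraries. HNRNPH1 (43.1% GC) was 0.34 and SRSF3 (39.4% GC) 0.33 higher in replicate 2, whereas HNRNPUL1, at 54.9% the richest in GC, differed by -0.072. HNRNPR, the lowest in GC at 35.1%, differed by 0.26. The part of base composition in the differences between groups was not tested, apart from the fit with the trend removed.

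**Figure D3:**
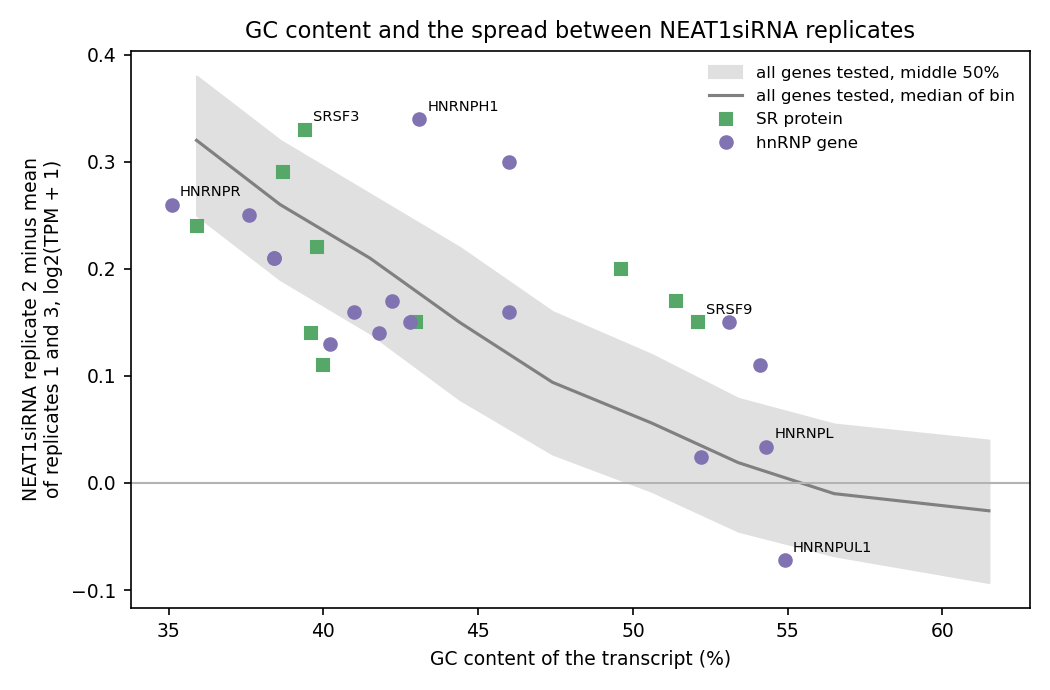
GC content of the transcript in percent (x) and the difference of NEAT1siRNA replicate 2 from the mean of replicates 1 and 3 on the log2(TPM + 1) scale (y) for SR proteins (squares) and hnRNP genes (circles), with the median (line) and the middle 50% (shaded) of all genes tested in bins of GC. The median of all genes tested is larger at low GC. The SR and hnRNP genes run from -0.072 for HNRNPUL1 at 54.9% GC to 0.34 for HNRNPH1 at 43.1% GC. HNRNPR, the lowest in GC at 35.1%, lies at 0.26.

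The balance between closely related genes was compared as a ratio of TPM within each library, which does not depend on how a library is scaled. Of 11 pairs of paralogs, 9 were compared, and SRSF2 with SRSF8 and HNRNPH1 with HNRNPH2 were not, since 1 gene of each was too low. An exact two-sided permutation test of 3 libraries against 3 cannot give a p below 0.1, so that none of the 9 could pass 0.05. In 5 pairs the groups did not overlap and the exact test gave p = 0.1, the smallest possible. For comparison, the groups did not overlap for 22926374 (40%) of all 57325278 pairs among 10708 genes tested and above 0 in every library, pairs that share genes and libraries. The SRSF4 to SRSF6 ratio had log2 values of -0.71, -0.62 and -0.67 in CsiRNA and -0.40, -0.46 and -0.40 in NEAT1siRNA. All NEAT1siRNA values were higher, with a mean ratio of 0.630 in CsiRNA and 0.749 in NEAT1siRNA. The SRSF3 to SRSF7 ratio had log2 values of 1.18, 1.17 and 1.12 in CsiRNA and 1.23, 1.50 and 1.34 in NEAT1siRNA. SRSF3 had a higher and SRSF7 a lower mean TPM in NEAT1siRNA.

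The other pairs apart between groups were SRSF10 with SRSF12 (ratio 23.2 in CsiRNA and 27.4 in NEAT1siRNA), HNRNPD with HNRNPAB (0.778 and 0.862) and HNRNPR with SYNCRIP, a close relative also known as hnRNP Q (0.567 and 0.638). The SRSF10 to SRSF12 ratio rests on the 53 to 74 reads of SRSF12. HNRNPUL1 with HNRNPUL2 had the largest difference, 0.27 on the log2 scale, but its groups overlapped (exact p = 0.2). HNRNPA1 with HNRNPA2B1 differed by 0.042 (exact p = 0.2), HNRNPL with HNRNPLL by -0.0047 (exact p = 1) and SRSF1 with SRSF9 by -0.059 (exact p = 0.5).

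**Figure D4:**
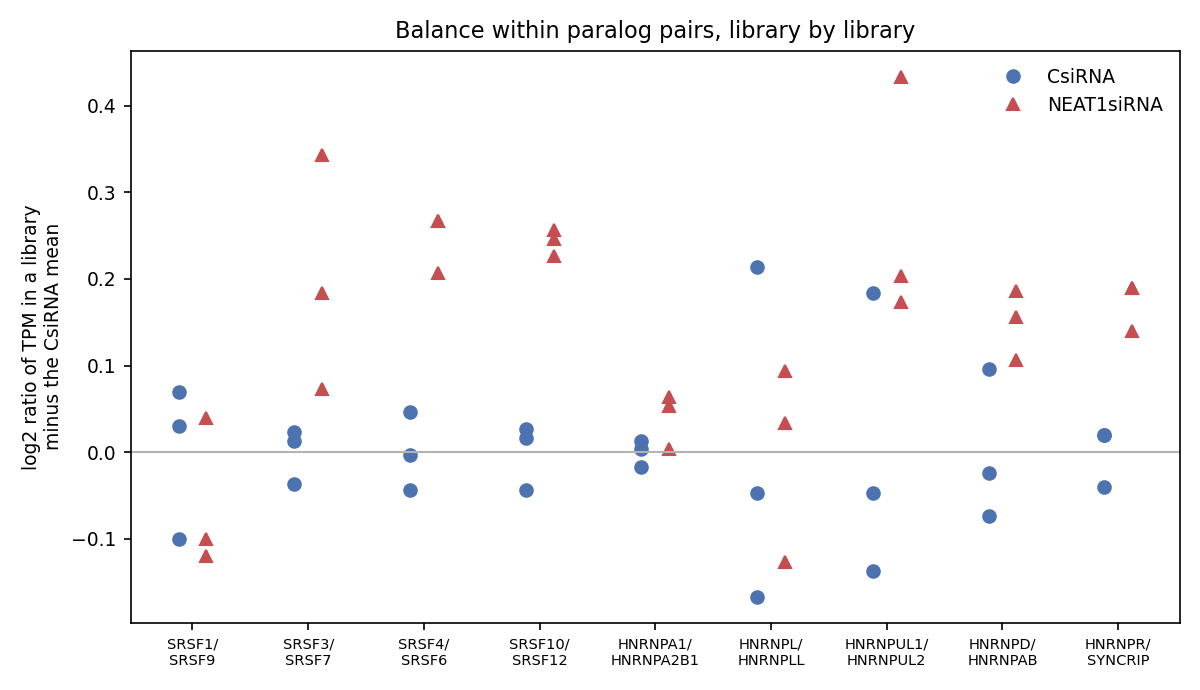
Log2 ratio of TPM between the paralogs of 9 pairs (x) in each library minus the CsiRNA mean of that pair (y), with circles for CsiRNA and triangles for NEAT1siRNA. The triangles lie apart from the circles in 5 pairs, among them SRSF4/SRSF6, where the mean difference is 0.25.

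Copies of hnRNP genes share sequence with their parents, which bears on what their counts mean. Of the 9, HNRNPA1L2, HNRNPA1P10 and HNRNPA1P33 were expressed enough to be tested, at 6.39, 13.3 and 1.10 TPM over the 6 libraries, beside 353 TPM for HNRNPA1. Their log2 fold changes were -0.12, -0.022 and -0.095 (adjusted p of 0.434 or more). HNRNPA1P10 (chr19:11666069-11667030, - strand), a processed pseudogene, had 72.9% of its stretches of 50 bases present in HNRNPA1 transcripts, and HNRNPA1L2 (chr13:52642431-52643773, + strand) had 48.7%. For HNRNPA1P33 (chr10:46415853-46416413, + strand) the share was 13.5%. A stretch of 75 bases from the HNRNPA1 reading frame is shown with its counterpart in each copy, since a read within it may not tell them apart. Capitals mark bases that differ from HNRNPA1.
HNRNPA1: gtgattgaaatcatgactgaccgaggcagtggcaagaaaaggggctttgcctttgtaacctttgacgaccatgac
HNRNPA1L2: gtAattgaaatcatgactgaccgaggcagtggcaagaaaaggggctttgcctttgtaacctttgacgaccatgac
HNRNPA1P10: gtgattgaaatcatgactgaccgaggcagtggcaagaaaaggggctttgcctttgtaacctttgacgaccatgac
HNRNPA1P33: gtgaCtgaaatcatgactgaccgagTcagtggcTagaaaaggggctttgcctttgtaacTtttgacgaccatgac
The copies differed from HNRNPA1 here at 1, 0 and 4 bases in that order. The values of HNRNPA1 and of these copies are thus uncertain to the extent that reads were divided among them. HNRNPA1L2 also lies wholly within exons of another annotated gene. The 6 others were below the limit for testing. HNRNPA3P1 had between 44 and 67 reads, HNRNPCL1 and HNRNPCL2 had at most 2, and HNRNPCL3, HNRNPCL4 and HNRNPKP3 were listed at 0 in every library.

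Promoters of the genes were described by motifs in their sequence, as a feature not used to choose them. RefSeq promoters (GRCh38.p14), from 250 bases before to 50 bases after a start site, were found for 17 of 18 hnRNP genes and 11 of 12 SR genes. The letters CCAAT, read on both strands, stood in a promoter of 15 of the 17 hnRNP genes and in 2 of the 11 SR genes (SRSF3 and SRSF8), against 43.8% of 8316 genes tested that had a promoter. Counted by promoter, as some genes have several, they stood in 17 of 25 hnRNP and 3 of 14 SR promoters, against 35.2%. Of 29 such matches before the start in hnRNP promoters, 15 began between 50 and 120 bases upstream, where CCAAT boxes bound by NF-Y usually lie. The share of matches at these positions over all promoters was not computed, so this count has nothing to be set against. The E-box CACGTG, which MYC and its partner MAX can bind, stood in 6 of 17 hnRNP genes (HNRNPA3, HNRNPD, HNRNPDL, HNRNPH2, HNRNPM and HNRNPUL1) and in 0 of 11 SR genes, against 13.1%. The E-box of HNRNPUL1 did not lie wholly before the start, nor did the CCAAT match of HNRNPH1. HNRNPH2, SRSF8 and SRSF12 were counted though below the limit of expression for testing, whereas the shares are over genes tested. The letters TATAAA, also read on both strands, stood in 3 of 17 hnRNP and 3 of 11 SR genes, against 7.56%. Their strand and position were not taken into account, so these are not counts of TATA boxes. A match describes the letters in this window and is not a site of binding.

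The 150 bases before the start are shown for 3 hnRNP genes and 2 SR genes, 5′ to 3′ along the gene, to show a promoter with 1 CCAAT (on the other strand, as ATTGG), 1 with CCAAT and the E-box, and 1 with a pair of CCAAT boxes, beside SRSF3, which has both orientations, and SRSF6, which has neither motif. Capitals mark CCAAT in either orientation and the E-box. They lie at chr7:26200747-26200896 (- strand), chr2:177212644-177212793 (+ strand), chr5:178204383-178204532 (+ strand), chr6:36594212-36594361 (+ strand) and chr20:43457746-43457895 (+ strand) in that order.
HNRNPA2B1: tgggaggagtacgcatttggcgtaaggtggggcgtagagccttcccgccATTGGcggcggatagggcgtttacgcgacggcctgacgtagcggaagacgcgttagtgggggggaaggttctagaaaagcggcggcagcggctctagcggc
HNRNPA3: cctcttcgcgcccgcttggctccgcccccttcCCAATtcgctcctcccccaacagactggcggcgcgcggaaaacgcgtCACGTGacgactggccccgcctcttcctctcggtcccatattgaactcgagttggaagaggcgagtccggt
HNRNPAB: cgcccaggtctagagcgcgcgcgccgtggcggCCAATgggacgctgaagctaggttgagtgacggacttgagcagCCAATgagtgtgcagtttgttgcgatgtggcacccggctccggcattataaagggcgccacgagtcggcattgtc
SRSF3: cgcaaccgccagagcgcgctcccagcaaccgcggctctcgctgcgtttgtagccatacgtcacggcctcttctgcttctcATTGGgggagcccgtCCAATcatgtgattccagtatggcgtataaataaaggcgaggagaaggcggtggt
SRSF6: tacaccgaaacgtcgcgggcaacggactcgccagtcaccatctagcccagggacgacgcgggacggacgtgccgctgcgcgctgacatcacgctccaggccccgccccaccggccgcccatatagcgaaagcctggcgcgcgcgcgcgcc
Of the genes with an E-box in the promoter, HNRNPH2 was below the limit of expression for testing. The others had log2 fold changes of 0.10 for HNRNPA3, -0.042 for HNRNPD, -0.11 for HNRNPDL, -0.0073 for HNRNPM and 0.11 for HNRNPUL1. MYC itself, which was looked at after its values were known, was 38.6, 36.3 and 35.3 TPM in CsiRNA and 27.2, 28.1 and 25.9 TPM in NEAT1siRNA (log2 fold change -0.43, adjusted p = 0.00197 by limma). Any relation between MYC and the genes with an E-box was not tested.

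The other genes of the splicing machinery were followed in 5 lists of 93 genes, of which 88 were tested, with 1 higher and 5 lower in NEAT1siRNA. Of the kinases, phosphatase and import receptor that act on SR proteins, 1 of 10 tested fell, beside 8.98% of all genes, and the median log2 fold change was -0.13. This was CLK2, a kinase that phosphorylates the arginine/serine-rich domain, at 5.11, 4.30 and 5.31 TPM in CsiRNA and 3.48, 3.42 and 2.62 TPM in NEAT1siRNA. The groups did not overlap, with a log2 fold change of -0.50 (SE 0.10, adjusted p = 0.00179). Without the filter on TPM the adjusted p of CLK2 was 0.0840. The related kinase CLK1 was 6.43 ± 0.673 TPM in CsiRNA and 5.44 ± 0.767 TPM in NEAT1siRNA (SD, n = 3 each; adjusted p = 0.194), and SRPK1, which phosphorylates SR proteins in the cytoplasm, was 59.4 ± 3.57 and 51.6 ± 4.08 TPM (adjusted p = 0.150). CLK1 and SRPK1 were picked from the list after their values were seen.

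Of the SR-related proteins, 2 of 22 tested fell, beside 8.98% of all genes, with a list median of -0.07. LUC7L, a homologue of the yeast U1 snRNP protein Luc7, was 8.57, 8.29 and 8.47 TPM in CsiRNA and 6.70, 6.69 and 6.33 TPM in NEAT1siRNA (log2 fold change -0.32, adjusted p = 0.0200). SRRM2, a scaffold of nuclear speckles, was 70.5, 51.0 and 63.9 TPM in CsiRNA and 55.7, 44.9 and 44.2 TPM in NEAT1siRNA (log2 fold change -0.35, adjusted p = 0.0357). The LUC7L groups did not overlap, while the SRRM2 groups did, and the adjusted p of SRRM2 was 0.263 without CsiRNA replicate 1 and 0.180 without NEAT1siRNA replicate 3. The call of SRRM2 was also lost after quantile normalization (adjusted p = 0.110), median centring (0.0952) and rescaling without the short noncoding RNAs (0.108). LUC7L had adjusted p-values up to 0.0871 when single libraries were left out.

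Of the hnRNPs that carry other names, 1 of 17 tested rose, beside 4.99% of all genes, and the list median was 0.02. PCBP3, a poly(C)-binding protein of the hnRNP E type, was 4.66, 3.97 and 4.28 TPM in CsiRNA and 6.35, 6.32 and 6.59 TPM in NEAT1siRNA. All NEAT1siRNA values were higher, and the log2 fold change of 0.49 (SE 0.094, adjusted p = 0.000900) passed the threshold in all 17 other settings of the fit. These do not count stricter thresholds, and PCBP3 was not called when the log2 fold change had to reach 0.5 in size. PTBP1, a repressor of exons that was looked at after its values were seen, was 114 ± 5.40 TPM in CsiRNA and 106 ± 7.38 TPM in NEAT1siRNA (SD, n = 3 each; adjusted p = 0.530).

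Of the core factors at splice sites, 1 of 24 tested fell, beside 8.98% of all genes. It was SNRPA1, the U2 snRNP protein A′. Its values were 31.5, 32.7 and 27.7 TPM in CsiRNA and 23.6, 27.5 and 24.0 TPM in NEAT1siRNA, with an adjusted p of 0.049998, which was 0.0525 with a pseudocount of 0.1 and 0.226 without CsiRNA replicate 2. In this list 21 of 24 log2 fold changes were below 0, with a median of -0.14, beside 60.7% below 0 and a median of -0.044 over all genes tested. Of the nonsense-mediated decay factors, 1 of 15 tested fell, also beside 8.98% of all genes. It was UPF1, the helicase of that pathway, at 11.0, 9.69 and 9.53 TPM in CsiRNA and 9.10, 7.76 and 6.84 TPM in NEAT1siRNA (log2 fold change -0.32, adjusted p = 0.0369). The median of the decay factors was -0.13. The adjusted p of UPF1 was 0.185 without CsiRNA replicate 1 and 0.231 without NEAT1siRNA replicate 3. Over all 88 genes 6 were called and the median was -0.066, against 14.0% and -0.044 for all genes tested. The medians and signs of the lists are given on the TPM scale of the main fit only. After centring on the median, the median of all genes tested was 0.013.

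**Figure D5:**
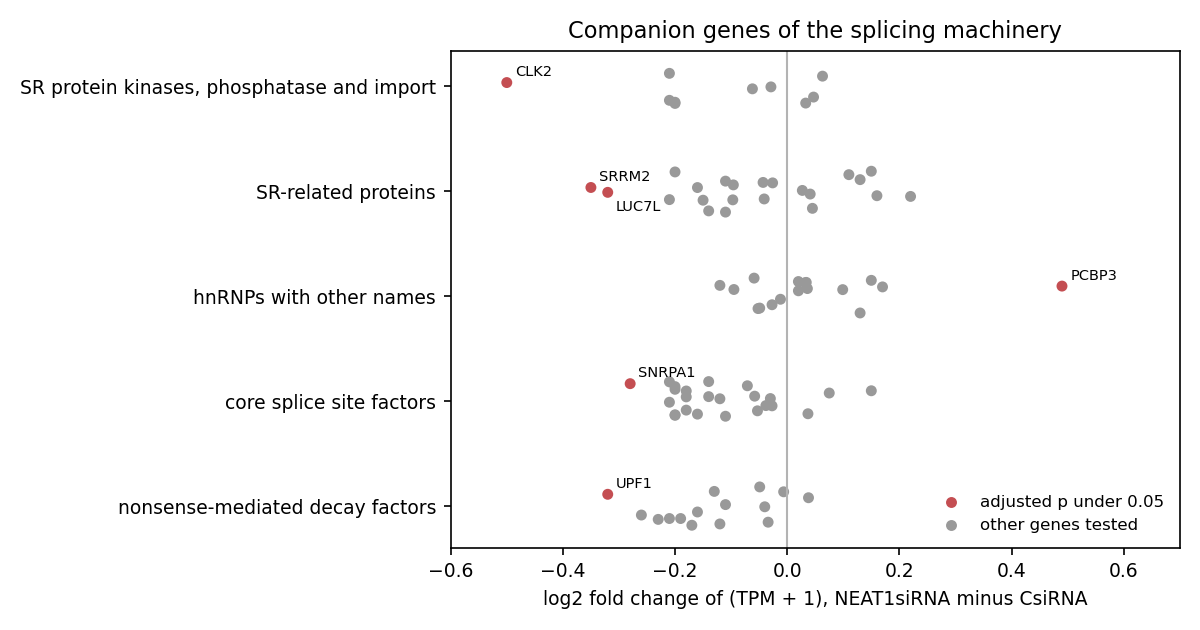
Log2 fold change of TPM + 1 (x, NEAT1siRNA minus CsiRNA) of the 88 genes tested in 5 lists of the splicing machinery (y, with points spread vertically for legibility), the 6 genes past an adjusted p of 0.05 in red and named. PCBP3 lies at 0.49 and CLK2 at -0.50, and the other genes of the lists lie between them.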

How the data were processed

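RNA was sequenced from BT-549 cells given CsiRNA or NEAT1siRNA, in 3 libraries per group. The authors made stranded mRNA libraries, aligned reads with STAR to GRCh38 and used DESeq2 to compare the groups. The counter and the step that made TPM are not given in the sources used here. The deposited tables hold TPM per gene and library and, for the authors' own comparison, the mean normalized count, which is a signal pooled from the 6 libraries, and the log2 fold change with its error, the score of the test and its p-value before and after adjustment. Of the latter the deposited signal alone was used, to recover reads: joined with TPM, it gave whole reads within 0.05 for 99.8% of values of genes with a mean under 5, for 98.6% up to 50, for 70.5% up to 500 and for 12.6% above. The recovered reads of genes above 500 were thus hardly checked in this way. All 27 SR and hnRNP genes tested averaged 644 recovered reads or more. The log2 fold changes, scores and p-values of the authors were not used.

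Values were taken as log2(TPM + 1) for the 10721 genes whose TPM averaged 1 or more. The comparison used limma 3.58.1 in R 4.3.3 (lmFit, then eBayes with trend), two-sided, with Benjamini-Hochberg adjustment over all genes tested and a threshold of 0.05. The method was tested on simulated data. Ratios of paralogs were compared by exact permutation. Other values used Python 3.11.15 (pandas 2.3.3, numpy 2.4.6, scipy 1.17.1), and figures matplotlib 3.10.9. GC content, length and coordinates came from GENCODE on GRCh38, by symbol, and were found for 10424 of the genes tested. All 39 SR and hnRNP genes, and the genes of the 5 lists, were chosen with earlier results of these data known, as were the pairs of paralogs. Genes were named if they were nearest to the threshold, most abundant, in a pair, or among the listed genes past the threshold. Amino acid sequences and the promoters of HNRNPA1 and SRSF2 were not analysed here. Settings varied were quantile normalization, median centring, rescaling without the 4 short noncoding RNAs, the pseudocount (0.1), the filter on TPM (none, or 5), eBayes with no trend, a replicate block, single libraries left out, stricter thresholds, voom on the recovered reads, and removal of the trend with GC content and length by a spline. Counts out of 17 other settings leave out the stricter thresholds.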

Additional observations from a re-analysis of the deposited data

How the results depend on the processing

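The count of SR proteins called, 0 as reported, was 1 after quantile normalization, 0 to 1 with single libraries left out, 2 with the GC and length trend removed and 1 with that and the replicate block. The count of hnRNP genes called, also 0 as reported, was 1, 0 to 1, 3 and 3 under the same settings. Over the whole table, 1498 genes were called, against 505 with no filter on TPM, 759 to 2083 with single libraries left out, 719 at an adjusted p under 0.01, 314 when the log2 fold change had also to reach 0.5 in size, 2469 with voom, 3469 with the GC and length trend removed and 3392 with that and the block. The lowest of the counts with a library left out was without CsiRNA replicate 1, and the highest without NEAT1siRNA replicate 2. Of the genes in the 5 lists, 6 were called, against 1 with no filter, 2 (without CsiRNA replicate 1 or NEAT1siRNA replicate 3) to 11 (without NEAT1siRNA replicate 2) with single libraries left out, 2 at an adjusted p under 0.01, 1 with that limit of 0.5, 21 with the trend removed and 23 with that and the block. The cause of these differences was not tested. No gene named as called changed direction under the settings tried.

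The share of higher genes among those called was 35.7%, and it was 49.4% after quantile normalization, 54.8% after median centring, 45.7% after rescaling, 49.7% with voom and 49.1% with the trend removed. Whether replicate numbers pair the libraries is not given in the sources used here. The correlations of deviations from the group means were -0.0304, 0.251 and -0.107 for the same number. For different numbers they ran from -0.397 to 0.399. With 3 libraries per group, these values cannot show whether the libraries were paired. With the replicate number as a block 1640 genes were called, of which 0 were SR or hnRNP genes.

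Precision is limited by 3 libraries per group, and for HNRNPH2, SRSF8, SRSF12 and most copies by few reads.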
